A study of Mus musculus with 12 samples.

Results

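The 10 genes described here are members of the BCL2 family, the proteins that set whether the mitochondrial outer membrane of a cell is opened during apoptosis. They were chosen by name from the 43626 gene identifiers of the count files. They are Bcl2a1a, Bcl2a1b, and Bcl2a1d, which are near-identical mouse copies of A1, the other pro-survival genes Bcl2, Bcl2l1, and Mcl1, the pore-forming effector Bax, and the BH3-only genes Bcl2l11, Bbc3, and Pmaip1. All 10 passed the filter on low counts that left 14308 genes for testing. They were measured by RNA-Seq in 12 libraries of bone marrow-derived macrophages (BMDMs), 3 for each of 4 conditions. For 6 hours the cells received PBS as the control, 100 μg/mL of 3′SL, 10 ng/mL of LPS, or both agents together (LPS + 3′SL). BMDMs are macrophages grown from mouse bone marrow, LPS is an endotoxin of bacteria sensed through TLR4, and 3′SL stands for 3′-sialyllactose, a human milk oligosaccharide that the labels call HMO. Doses and hours come from the paper, since the labels give another kind of treatment, and the labels give no strain, sex, age, donor, or batch, so p-values measure only the spread between these libraries, which may be technical. All conditions were cells of the same kind, with no genetic change named.

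Pro-survival members bind and hold BH3-only proteins and the activated effectors, and cells with enough of them survive death signals. BH3-only proteins are the sensors that bind the pro-survival members or activate the effectors, and BAX and its relative BAK form the pores through which cytochrome c leaves. A1 and MCL1 are short-lived pro-survival proteins whose genes respond to inflammatory signals in myeloid cells, and A1 is a well-known NF-κB target. BIM, encoded by Bcl2l11, limits the life span of leukocytes, and Bbc3 (PUMA) and Pmaip1 (NOXA) are known for their induction by p53.

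The A1 copies decide how far the counts can be read, so their sequences are shown first. All 3 lie on mouse chromosome 9 (GRCm38). Bcl2a1a is at chr9:88956900-88962419 on the plus strand, Bcl2a1b at chr9:89199209-89207827 on the plus strand, and Bcl2a1d at chr9:88723285-88731914 on the minus strand, each with 2 exons. Their coding parts have 516 bases, of which 11 differed between Bcl2a1a and Bcl2a1b, 7 between Bcl2a1a and Bcl2a1d, and 6 between Bcl2a1b and Bcl2a1d. Capitals in the sequences below mark a base that is held by that copy alone. The first 90 coding bases, in exon 1, hold 4 of the 6 coding bases by which Bcl2a1a can be told from both others.
Bcl2a1a, chr9:88957051-88957140, plus strand: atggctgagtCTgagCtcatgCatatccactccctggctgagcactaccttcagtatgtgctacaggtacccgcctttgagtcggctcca
Bcl2a1b, chr9:89199360-89199449, plus strand: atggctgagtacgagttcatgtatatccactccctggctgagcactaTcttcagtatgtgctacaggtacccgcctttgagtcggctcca
Bcl2a1d, chr9:88731630-88731719, minus strand: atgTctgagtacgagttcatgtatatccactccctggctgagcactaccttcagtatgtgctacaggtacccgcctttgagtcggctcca
The coding part of exon 2 has 96 bases, and in it only Bcl2a1b holds a base of its own, while Bcl2a1a and Bcl2a1d are the same.
Bcl2a1a, chr9:88962172-88962267, plus strand: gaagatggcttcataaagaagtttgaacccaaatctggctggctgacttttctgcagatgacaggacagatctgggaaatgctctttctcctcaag
Bcl2a1b, chr9:89207582-89207677, plus strand: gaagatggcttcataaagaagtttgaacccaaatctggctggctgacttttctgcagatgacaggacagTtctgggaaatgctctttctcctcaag
Bcl2a1d, chr9:88723437-88723532, minus strand: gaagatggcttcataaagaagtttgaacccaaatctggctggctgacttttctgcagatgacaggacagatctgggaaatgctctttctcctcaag

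The count files hold reads that aligned to more than 1 place, or that fell on more than 1 gene, in rows of their own and not on any gene. Of all words of 50 bases in the transcript, 69.0% in Bcl2a1a, 79.2% in Bcl2a1b, and 79.5% in Bcl2a1d also occur in another gene, against 0% in Mcl1, Bcl2l1, Bbc3, and Pmaip1, 0.135% in Bcl2l11, 5.25% in Bcl2, and 8.51% in Bax. Bcl2a1b has a further limit, because 401 of the 571 bases of its first exon (chr9:89199209-89199779) are also annotated as the first exon of Gm29094, a gene on the same strand that starts at 89199379. Its second exon (chr9:89207582-89207827) lies outside Gm29094. Taking both limits together, a word of 50 bases could be counted from 239 of 770 start positions in Bcl2a1a (31.0%), 102 of 768 in Bcl2a1b (13.3%), and 167 of 814 in Bcl2a1d (20.5%). Counts of single A1 copies are therefore uncertain, and levels of A1 copies leave out reads that fell on shared words. The read length is not given in the sources used here, and with words of 75 or 100 bases the countable shares ranged from 16.4% to 56.5%, with Bcl2a1b the lowest each time.

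The copies also share promoter sequence. RefSeq (GRCm38.p6) gives a window from 250 bases before to 50 after the start of each gene. From it 60 bases are shown, because all 3 copies hold the same letters from the marked ones to the end. Just before the marked letters, Bcl2a1a and Bcl2a1b hold gaggaa, which Bcl2a1d lacks at that place. The letters shown before that place for Bcl2a1a and Bcl2a1b also occur in Bcl2a1d, shifted along the line. Capitals mark the letters GAGGAAGT, a form of the site bound by PU.1, the lineage factor of macrophages.
Bcl2a1a, chr9:88956790-88956849, plus strand: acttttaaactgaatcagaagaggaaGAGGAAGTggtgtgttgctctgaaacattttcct
Bcl2a1b, chr9:89199099-89199158, plus strand: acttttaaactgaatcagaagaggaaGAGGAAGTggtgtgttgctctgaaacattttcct
Bcl2a1d, chr9:88731921-88731980, minus strand: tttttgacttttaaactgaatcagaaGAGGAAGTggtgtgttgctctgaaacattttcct
These letters, searched on both strands and chosen after the windows were read, occur in 3.2% of 32851 promoter windows of the same length, and the window of Bcl2a1c, a further A1 relative, holds them too. An NF-κB form (GGG, 2 free letters, TT, 1 free letter, CC, on both strands) occurs in 4.79% of all windows, in none of the A1 windows, in the 1 window of Mcl1, and in 1 of 2 windows of Bcl2l11, 1 of 3 of Bcl2l1, and 1 of 3 of Bbc3. Such matches describe the letters of these windows only.

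Between 20411741 and 26851890 reads were counted on genes per library (median 23375851), and no pair of libraries of a condition agreed within sampling noise (chi-square of at least 14.5 per gene). After removal of the condition means, the libraries fell into 3 sets of 4, 1 library of each condition per set, which follow the running numbers of the labels (mean residual correlation 0.596 within sets, -0.346 between). The sets were formed by clustering on these same correlations, so the means describe the sets and do not test them. The labels do not call these sets batches, and values below are given in the order of set 1, 2, and 3. The 6 macrophage markers summed to 17320 to 25530 CPM in all libraries (CPM are counts divided by the library size after scaling with edgeR's TMM factors), T and NK cell markers to at most 0.268 CPM, and Cd3e and Cd3g had no read. The 9 neutrophil markers, led by S100a9, Ngp, and Ltf, summed to 141, 268, and 553 CPM with PBS and to 222, 449, and 1018 CPM with LPS, so they were highest in set 3, and with library set as a block 5 of them were called higher with LPS and 1, Retnlg, lower. The 5 fibroblast markers were highest in set 1, at 509 to 586 CPM there against 21.6 to 85 CPM elsewhere. The other members lie at chr1:106538178-106714274 (Bcl2, minus strand), chr2:152780668-152831728 (Bcl2l1, minus), chr3:95658788-95663176 (Mcl1, plus), chr7:45461697-45466898 (Bax, minus), chr2:128126038-128162547 (Bcl2l11, plus), and chr7:16308393-16318205 (Bbc3, plus), in GRCm38, and the position of Pmaip1 is not given here.

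Levels per kilobase of exon, on which genes without shared sequence can be compared, put Mcl1 above the other members outside A1 in every condition. With PBS it had 114 ± 1.37 CPM per kb (SD, n = 3), followed by Bax at 52.7 ± 4.13, Bcl2l1 at 33.7 ± 7.36, and Bcl2l11 at 9.85 ± 1.27 CPM per kb. Bbc3 had 4.36 ± 1.41, Pmaip1 2.31 ± 0.698, and Bcl2 1.63 ± 0.331 CPM per kb, and the last 2 overlapped between libraries. With LPS the values were 347 ± 34.4 CPM per kb for Mcl1, 61.9 ± 3.5 for Bax, 32.3 ± 1.27 for Bcl2l1, and 6.19 ± 0.952 for Bcl2l11. Bcl2 was last in both conditions with LPS, at 0.277 ± 0.0263 CPM per kb with LPS alone and 0.228 ± 0.0742 with LPS + 3′SL.

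The place of the A1 copies depended on what their counts were divided by. Per kilobase of exon, Bcl2a1b had 76.4 ± 8.68 CPM per kb with PBS and 305 ± 13.4 with LPS, below Mcl1 with PBS and overlapping with it with LPS. Per 1000 countable start positions of 50-base words, a scale chosen after the data were seen, Bcl2a1b came first in every condition, with 612 ± 69.5 CPM against 115 ± 1.38 for Mcl1 with PBS, and 2442 ± 107 against 348 ± 34.5 with LPS. It also came first with words of 75 or 100 bases. Bcl2a1d had 19.2 ± 4.63 and Bcl2a1a 1.95 ± 0.517 CPM per 1000 countable starts with PBS, and 773 ± 155 and 249 ± 119 with LPS.

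**Figure D1:**
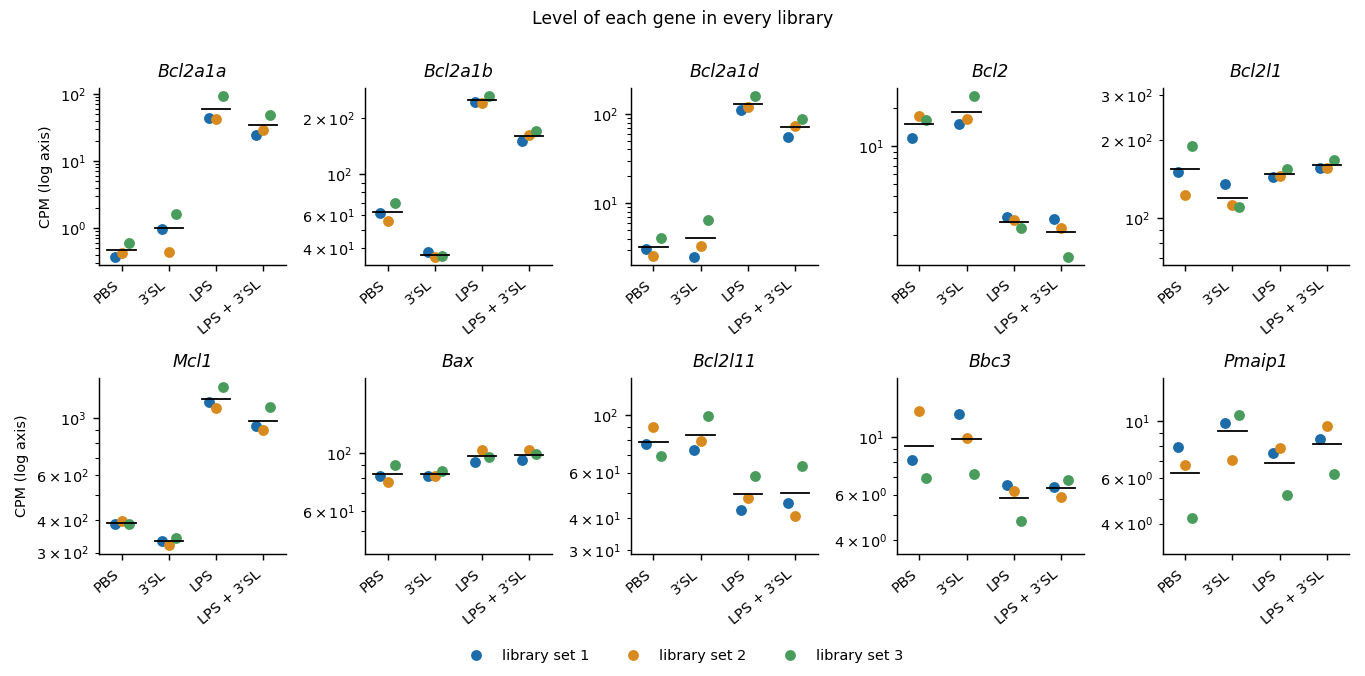
Level of the 10 genes in CPM on a log axis, 1 point per library colored by library set and a line at the mean of each condition. Bcl2a1a, Bcl2a1b, Bcl2a1d, and Mcl1 lie higher with LPS and Bcl2 lower in every library, while the CPM of Bcl2l1 and Pmaip1 overlap between PBS and LPS.

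LPS was compared with PBS to see how activation moved the balance of the family. A member was called where edgeR's quasi-likelihood test gave a p below 0.05, adjusted by Benjamini-Hochberg over all genes, and a change of 1.5-fold or more, and this held for 6 of the 10. They were the 3 A1 copies and Mcl1, which rose, and Bcl2 and Bcl2l11, which fell. Of all genes tested, 38.5% were called in this comparison, 18.3% higher and 20.2% lower. The median log2 change was 1.80 over the 6 pro-survival members, -0.67 over the 3 BH3-only members, and -0.06 over all genes. The first of these counts the 3 near-identical A1 copies separately. With the copies summed, the pro-survival changes were 2.73 for A1, 1.60 for Mcl1, -0.06 for Bcl2l1, and -2.55 for Bcl2, so they went both ways. The CPM of 8 members did not overlap between the conditions, as was the case for 58.4% of all genes.

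Bcl2a1b was the only A1 copy with a sizeable level before LPS. It had 61.6, 55.8, and 69.9 CPM with PBS and 245, 241, and 262 CPM with LPS, a log2 change of 2.00 (SE 0.10, adjusted p = 4.47e-07). Bcl2a1a went from 0.373, 0.421, and 0.607 CPM, which is 12 to 18 reads, to 43.9, 42.4, and 92.5 CPM (log2 change 6.99, SE 0.56, adjusted p = 4.08e-06). Bcl2a1d went from 3.04, 2.53, and 4.05 CPM to 110, 119, and 159 CPM (log2 change 5.33, SE 0.37, adjusted p = 1.77e-06). All copies were higher with LPS in 3 of 3 sets, by 3.99-fold for Bcl2a1b, 40.2-fold for Bcl2a1d, and 127-fold for Bcl2a1a. The library with the highest Bcl2a1a was the one of set 3, where the neutrophil markers were highest as well, and their part in this spread was not tested. In such bulk RNA, fewer cells of a type and less RNA per cell cannot be told apart.

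The copies thus made up unlike shares of the A1 counts. Bcl2a1b held 94.5% ± 0.646 of the A1 counts with PBS (SD, n = 3) and 57.4% ± 5.62 with LPS, Bcl2a1d 4.80% ± 0.574 and 29.4% ± 1.67, and Bcl2a1a 0.702% ± 0.121 and 13.2% ± 4.19. These shares did not overlap between PBS and LPS for any copy (exact permutation test, 2-sided, p = 0.1, the smallest that 3 against 3 can give, adjusted p = 0.133 over 12 tests of A1 levels and shares). Bcl2a1b thus had the most counts of the copies although it has the fewest countable positions. Summed over the copies, A1 had 65.0, 58.7, and 74.5 CPM with PBS and 399, 402, and 513 with LPS (log2 change 2.73, SE 0.15, edgeR adjusted p = 6.01e-07).

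**Figure D2:**
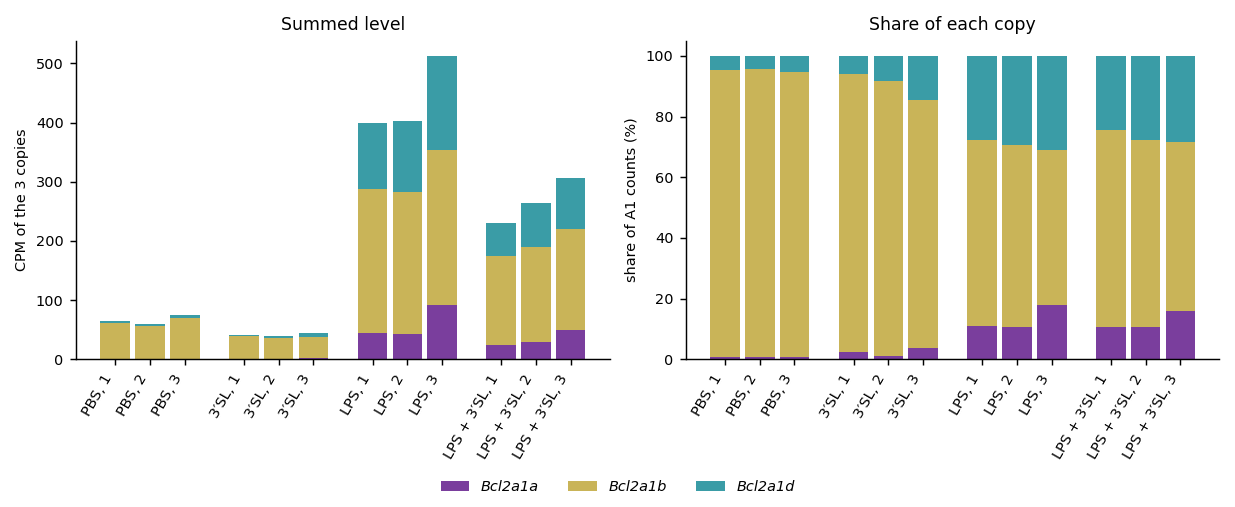
Summed CPM of the 3 A1 copies in every library (left) and the share of each copy in the A1 counts in percent (right), with the number after the condition giving the library set. Bcl2a1b makes up 81.8% to 95.0% of the counts without LPS and 51.0% to 65.1% with LPS, and the sum is lower with 3′SL than without it in each set.

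Mcl1 had 388, 397, and 389 CPM with PBS and 1149, 1090, and 1317 CPM with LPS, a 3.03-fold rise (log2 change 1.60, SE 0.12, edgeR adjusted p = 2.82e-06). Bcl2, the founding pro-survival gene of the family, moved the other way, from 11.5, 17.3, and 16.1 CPM to 2.73, 2.61, and 2.27 CPM, a 5.86-fold fall (log2 change -2.55, SE 0.28, adjusted p = 3.74e-05). Bcl2l1, which encodes BCL-XL, had 151, 123, and 190 CPM with PBS and 145, 145, and 155 CPM with LPS (log2 change -0.06, SE 0.15, adjusted p = 0.773). Of the pro-survival members, therefore, A1 and Mcl1 were higher in every LPS library, Bcl2 was lower in every one, and the LPS values of Bcl2l1 lay within the range of the PBS values. With D630008O14Rik, an antisense gene, Bcl2 shares 6.09% of its exon bases, and whether the counting used the strand is not given in the sources used here.

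Among the pro-apoptotic members, Bcl2l11 fell from 77.3, 90.1, and 69.9 CPM to 43.1, 47.9, and 58.1 CPM (log2 change -0.67, SE 0.19, adjusted p = 0.0126). This call was lost without the PBS library of set 2 (-0.57, adjusted p = 0.0515) and without the LPS library of set 1 (-0.58, adjusted p = 0.0491, under 1.5-fold), and in the block fit without set 2 (-0.57, adjusted p = 0.0235, under 1.5-fold). Bbc3 had 8.15, 12.7, and 6.98 CPM with PBS and 6.54, 6.20, and 4.73 CPM with LPS, ranges that did not overlap (log2 change -0.67, SE 0.26, adjusted p = 0.0543), and it was called lower with library set as a block (-0.66, adjusted p = 0.0205), but not in that fit without set 2. Bax had 82.0, 77.2, and 90.1 CPM with PBS and 92.5, 103, and 96.9 CPM with LPS, again without overlap, but the difference was below 1.5-fold (log2 change 0.23, SE 0.09, adjusted p = 0.0459). Pmaip1 had 7.95, 6.74, and 4.22 CPM with PBS and 7.52, 7.85, and 5.16 CPM with LPS, which overlapped (log2 change 0.12, SE 0.28, adjusted p = 0.765). No pro-apoptotic member was called higher, but Bak1 and Bid, described below among the further genes of the family, were.

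These values rest on the scaling of the libraries, since TMM factors ran from 0.700 to 1.30. With total counts as the scale, the median of all genes moved from -0.06 to -0.71, and 10.7% of genes were called higher and 46.5% lower. The A1 copies and Mcl1 then still rose (log2 changes 6.29, 1.34, 4.66, and 0.94 for Bcl2a1a, Bcl2a1b, Bcl2a1d, and Mcl1), and Bcl2 (-3.19) and Bcl2l11 (-1.34) still fell. Bax turned to -0.42 and Pmaip1 to -0.52, and Bcl2l1 (-0.71) and Bbc3 (-1.30) were called lower, while the value of Bcl2l1 equalled the median of all genes.

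**Figure D3:**
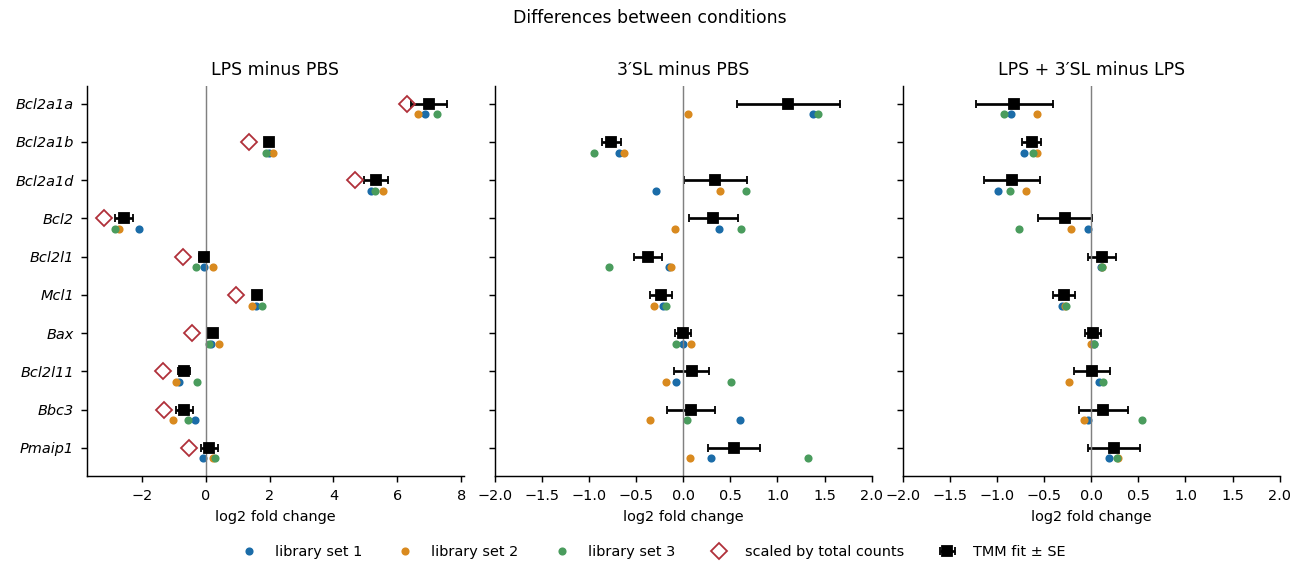
Log2 fold changes of the 10 genes in 3 comparisons, with the edgeR estimate and its SE in black, the log2 CPM ratio within each library set as colored points, and, for LPS minus PBS, the estimate with libraries scaled by total counts as open diamonds. With LPS the A1 copies and Mcl1 lie above 0 and Bcl2 and Bcl2l11 below 0 under both scalings, while Bax and Pmaip1 change sign, and Bcl2a1b lies below 0 in each set in both comparisons with 3′SL.

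A ratio of members within a library does not depend on that scale. Per kilobase of exon, the log2 ratio of Mcl1 to Bcl2l11, a pro-survival gene over the BH3-only gene whose protein it binds, was 3.56, 3.37, and 3.71 with PBS and 5.97, 5.74, and 5.74 with LPS. That of Mcl1 to Bax was 1.13, 1.25, and 0.994 with PBS and 2.52, 2.28, and 2.65 with LPS. The ratio of all 6 pro-survival members to all 3 BH3-only members was 3.79, 3.46, and 4.20 with PBS and 6.24, 6.15, and 6.51 with LPS. It was thus 2.48 higher on the log2 scale and higher in 3 of 3 sets. This ratio leaves out the further tested BH3-only genes. Of these, Bid was called higher with LPS (log2 change 0.64), Bmf lower (-4.19), and Bad was not called (0.14). Its pro-survival side was mostly A1 and Mcl1. With LPS, Mcl1 had 347 CPM per kb, against 32.3 for Bcl2l1 and 0.277 for Bcl2. The ratio of Bcl2 to Bcl2l11 moved the other way, at -2.94, -2.57, and -2.31 with PBS and -4.17, -4.38, and -4.87 with LPS. None of these 4 ratios overlapped between LPS and PBS (exact permutation test, 2-sided, p = 0.1, the smallest possible, adjusted p = 0.15 over 21 tests), while the ratio of Bcl2l1 to Bcl2l11 did (1.77, 1.26, and 2.25 with PBS against 2.56, 2.41, and 2.22 with LPS, exact p = 0.2, adjusted p = 0.247). Also relative to Mcl1, summed A1 was higher with LPS, with log2 ratios of -0.517, -0.695, and -0.324 with PBS and 0.516, 0.602, and 0.679 with LPS. The height of ratios that hold A1 rests on the exon length, but with countable starts of 50-base words in its place the differences between conditions kept their direction in 3 of 3 sets and did not overlap. For all pro-survival to all BH3-only members they were then 2.81 for LPS against PBS, -0.77 for 3′SL against PBS, and -0.73 for LPS + 3′SL against LPS.

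**Figure D4:**
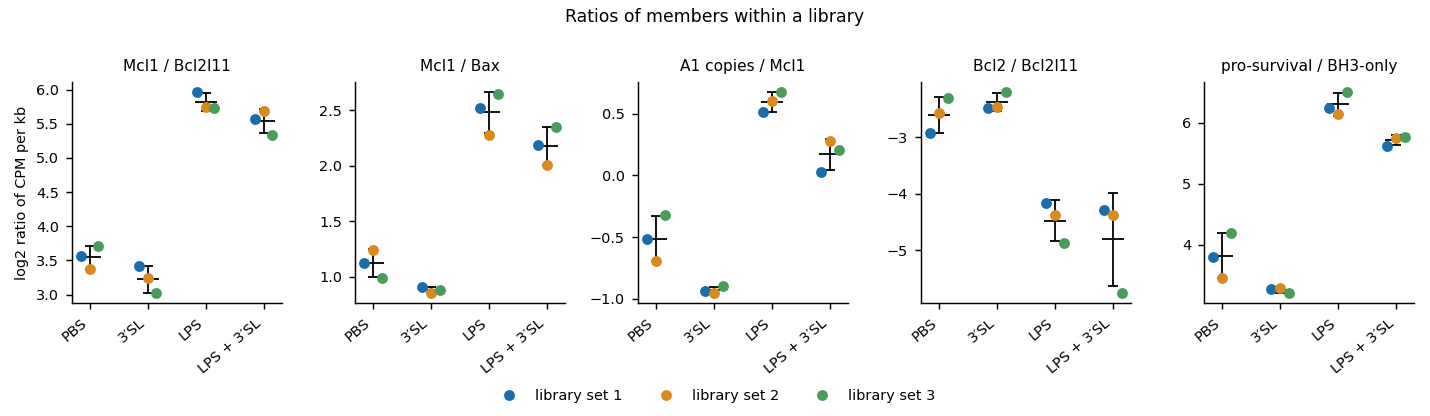
Log2 ratios of CPM per kilobase of exon between members of the same library, in panels for Mcl1 to Bcl2l11, Mcl1 to Bax, A1 to Mcl1, Bcl2 to Bcl2l11, and all pro-survival to all BH3-only members, 1 point per library colored by set, with mean and SD over 3 libraries in black and an axis of its own for each panel. The 3 LPS libraries lie above the 3 PBS libraries in each panel but that of Bcl2 to Bcl2l11, where they lie below, the ratio of Bcl2l1 to Bcl2l11 is not plotted, and A1 to Mcl1 is lower in the 3′SL libraries than in PBS and lower in the LPS + 3′SL libraries than in LPS.

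3′SL alone was compared with PBS to see what it did in unstimulated cells. EdgeR called 0 of the 10 members and 0% of the 14308 genes, while 1439 genes had an unadjusted p under 0.05. The member furthest from PBS relative to its error was Bcl2a1b, with 38.3, 36.0, and 36.2 CPM with 3′SL against 61.6, 55.8, and 69.9 CPM with PBS (log2 change -0.76, SE 0.10, unadjusted p = 1.16e-05, adjusted p = 0.167). This adjusted p was the lowest reached by any gene in this comparison. DESeq2, which called 0.615% of all genes, called Bcl2a1b alone among the members (-0.76, adjusted p = 4.15e-07), and edgeR with library set as a block, which called 2.84% of all genes, called Bcl2a1b (-0.76, adjusted p = 0.00223) and Bcl2a1a (1.09, adjusted p = 0.0453). Bcl2a1b was lower in 3 of 3 sets, with log2 CPM ratios of -0.69, -0.63, and -0.95. With set 1 or set 2 left out of the block fit no member was called, beside 0.0141% and 0.0208% of all genes. With set 3 left out, where 2.24% of all genes were called, Bcl2a1b was called and Bcl2a1a was not. The neutrophil markers summed to 153, 287, and 305 CPM with 3′SL against 141, 268, and 553 CPM with PBS, so set 3 was the one in which they fell short of PBS, and their part in the lower Bcl2a1b was not tested.

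The other copies did not follow Bcl2a1b. Bcl2a1a had 0.967, 0.438, and 1.63 CPM with 3′SL, which is 11 to 41 reads, against 0.373, 0.421, and 0.607 CPM with PBS, and the ranges overlapped (log2 change 1.11, SE 0.55, edgeR adjusted p = 0.543). Bcl2a1d had 2.49, 3.30, and 6.40 CPM with 3′SL against 3.04, 2.53, and 4.05 CPM with PBS (0.34, SE 0.33, adjusted p = 0.785), and its sign turned to -0.18 without the 3′SL library of set 3. The share of Bcl2a1b in the A1 counts was 91.7%, 90.6%, and 81.8% with 3′SL, below the 93.8% to 95.0% with PBS (exact permutation test, p = 0.1, adjusted p = 0.133). Summed A1 was 41.7, 39.8, and 44.2 CPM with 3′SL against 65.0, 58.7, and 74.5 CPM with PBS, 1.58-fold lower (log2 change -0.66, SE 0.14, edgeR adjusted p = 0.258, block adjusted p = 0.00407, DESeq2 adjusted p = 0.0186).

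The members outside A1 had smaller log2 changes than Bcl2a1b. Mcl1 had 334, 320, and 343 CPM with 3′SL against 388, 397, and 389 CPM, without overlap and 1.18-fold lower (log2 change -0.24, SE 0.12, edgeR adjusted p = 0.544). Bcl2a1b and Mcl1 were the 2 of 10 members whose CPM did not overlap between 3′SL and PBS, against 17.5% of all genes. Bcl2l1 had 135, 112, and 110 CPM (-0.37, SE 0.15, unadjusted p = 0.0268, adjusted p = 0.453), a difference that was -0.20 without the PBS library of set 3, which had 190 CPM. Bcl2 (0.32, SE 0.26), Bax (0.00, SE 0.09), Bcl2l11 (0.09, SE 0.19), and Bbc3 (0.08, SE 0.25) had adjusted p-values of 0.740 or more, and their ranges overlapped. Pmaip1 had 9.79, 7.08, and 10.6 CPM with 3′SL against 7.95, 6.74, and 4.22 CPM with PBS (0.54, SE 0.27, adjusted p = 0.560). The log2 ratio of all pro-survival to all BH3-only members was 3.28, 3.29, and 3.21 with 3′SL and 3.79, 3.46, and 4.20 with PBS, a difference of -0.56 that held in 3 of 3 sets (exact permutation test, p = 0.1, adjusted p = 0.15).

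LPS + 3′SL was compared with LPS to see whether 3′SL altered the activated state. EdgeR called 0 members and 0% of genes (995 genes at an unadjusted p under 0.05). All 3 A1 copies had lower values with 3′SL in 3 of 3 sets. Bcl2a1b had 149, 162, and 171 CPM with both agents against 245, 241, and 262 CPM with LPS (log2 change -0.63, SE 0.10, unadjusted p = 5.66e-05, adjusted p = 0.104). Bcl2a1d had 55.7, 73.4, and 87.2 CPM against 110, 119, and 159 CPM (-0.84, SE 0.30, adjusted p = 0.528), and neither of these copies overlapped between the conditions. Bcl2a1a had 24.4, 28.4, and 48.8 CPM against 43.9, 42.4, and 92.5 CPM, where the set 3 library with both agents overlapped with the LPS libraries of sets 1 and 2 (-0.81, SE 0.41, adjusted p = 0.781). DESeq2, which called 0.790% of all genes, called Bcl2a1b (adjusted p = 9.94e-06), and edgeR with library set as a block, which called 1.45%, called all 3 copies (adjusted p = 0.0147, 0.00266, and 0.00952 for Bcl2a1a, Bcl2a1b, and Bcl2a1d). The block calls of the members were lost when set 1 or set 2 was left out, where 0.00704% and 0% of all genes were called. The loss was thus not particular to the members. With set 3 left out, where 2.58% of all genes were called, the calls held for all 3 copies.

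Summed A1 was 230, 264, and 307 CPM with LPS + 3′SL and 399, 402, and 513 CPM with LPS, 1.64-fold lower (log2 change -0.72, SE 0.14, edgeR adjusted p = 0.156, block adjusted p = 0.00172, DESeq2 adjusted p = 0.0032). The shares of the copies overlapped between these conditions, with Bcl2a1b at 60.7% ± 4.76 against 57.4% ± 5.62 (exact permutation test, p = 0.5, adjusted p = 0.545). The neutrophil markers were close in each set, at 220, 413, and 940 CPM with both agents against 222, 449, and 1018 CPM with LPS. Mcl1 had 929, 896, and 1096 CPM against 1149, 1090, and 1317 CPM, lower in 3 of 3 sets but overlapping (-0.28, SE 0.12, unadjusted p = 0.0326, adjusted p = 0.649). A1 was lower relative to Mcl1 as well, with a log2 ratio of summed A1 to Mcl1 of 0.0293, 0.277, and 0.206 with both agents against 0.516, 0.602, and 0.679 with LPS, which did not overlap (exact permutation test, p = 0.1, adjusted p = 0.15).

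Bcl2l1 was the 1 member without overlap that was higher, at 156, 156, and 168 CPM against 145, 145, and 155 CPM, a difference of 0.11 on the log2 scale (SE 0.15, adjusted p = 1). With Bcl2a1b and Bcl2a1d, 3 of 10 members did not overlap, against 12.7% of all genes. Bcl2 had 2.67, 2.25, and 1.34 CPM against 2.73, 2.61, and 2.27 CPM (-0.28, SE 0.29, adjusted p = 1). Bax (0.02, SE 0.09), Bcl2l11 (0.01, SE 0.19), Bbc3 (0.13, SE 0.26), and Pmaip1 (0.24, SE 0.28) overlapped between the conditions, with adjusted p-values of 1. The log2 ratio of all pro-survival to all BH3-only members was 5.62, 5.76, and 5.76 with both agents, below the 6.24, 6.15, and 6.51 with LPS and above the 3.46 to 4.20 with PBS (difference from LPS -0.59, exact permutation test, p = 0.1, adjusted p = 0.15).

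The interaction asks whether the change with 3′SL differed between cells with and without LPS. EdgeR called 0 members and 0% of genes (872 genes at an unadjusted p under 0.05), DESeq2 called 0 members and 0.308% of genes, and the block fit called 2 members and 1.55% of genes. Those members were Bcl2a1a (edgeR -1.93, SE 0.68, adjusted p = 0.746, block -1.87, adjusted p = 0.0166) and Bcl2a1d (edgeR -1.18, SE 0.45, adjusted p = 0.746, block -1.13, adjusted p = 0.0334). For Bcl2a1b the interaction was 0.13 (SE 0.14, adjusted p = 0.934), with log2 ratios between -0.95 and -0.58 in all 6 pairs of libraries. The comparisons of 3′SL without and with LPS share no library. For summed A1 the interaction was -0.06 (SE 0.20, adjusted p = 0.994). With set 3 left out of the block fit, Bcl2a1d was still called (-0.84, adjusted p = 0.0389) and Bcl2a1a was not, beside 3.17% of all genes. With set 1 or set 2 left out neither was called, beside 0.00704% and 0% of all genes.

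The rest of the family comprised 10 further genes, of which 7 passed the filter. With LPS, 3 of them were called higher and 1 lower, beside 18.3% and 20.2% of all genes, the latter with a larger change than any member's fall. Bmf, a BH3-only gene, had 6.57, 11.2, and 4.08 CPM with PBS and 0.635, 0.339, and 0.184 CPM with LPS (log2 change -4.19, SE 0.63, edgeR adjusted p = 0.000299). Bak1, the second effector, rose from 62.2 ± 5.43 to 118 ± 4.93 CPM (SD, n = 3, 0.92, SE 0.11, adjusted p = 6.82e-05), and Bid, a BH3-only gene activated by death receptors, from 47.1 ± 4.47 to 73.6 ± 5.43 CPM (0.64, SE 0.13, adjusted p = 0.00179). With total counts as the scale, neither Bak1 nor Bid was called. Bcl2a1c, the more distant A1 relative, had 0 to 4 reads with PBS and 8 to 24 with LPS (3.55, SE 1.18, adjusted p = 0.0294). Bcl2l2 (0.42, SE 0.15, adjusted p = 0.0419), Bad (0.14, SE 0.12), and Bok (-1.0, SE 1.41), which had at most 73 reads, were not called. Bcl2l10, Bik, and Hrk did not pass the filter and had at most 5, 10, and 1 reads.

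The genes around the family, listed by their role, moved with LPS in both directions. Of 13 genes of the apoptosome, caspases, and their inhibitors, 8 were called higher and 3 lower, where all genes had 18.3% higher and 20.2% lower, as for each list that follows. Among them were Birc3 (log2 change 3.09, edgeR adjusted p = 2.51e-06), an inhibitor of apoptosis that was higher, and Endog (-2.14, adjusted p = 0.0136) and Casp9 (-0.81, adjusted p = 0.00058), which were lower. Of 8 genes of death receptor complexes and necroptosis, 4 were called higher and 1 lower, with Fas (4.49), the death receptor, and Mlkl (4.04), the executor of necroptosis, furthest up and the adaptor Fadd (-0.77) down. The list held opposing genes, as Cflar, which blocks caspase 8, rose by 3.49 on the log2 scale and Casp8 itself by 1.70.

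Of 12 tested genes of p53 and its targets, 3 were called higher, led by Cdkn1a (2.55), a cell cycle inhibitor, and Btg2 (2.31), and 3 lower, led by Trp53inp1 (-1.76) and Zmat3 (-1.47). Bbc3 and Pmaip1 thus stood beside p53 targets that moved both ways. Of 4 tested transcription factors that act on BH3-only genes, 0 were called higher and 3 lower, E2f1 (-2.18), Foxo3 (-1.55), which is known to act on Bcl2l11, and Foxo1 (-1.54). Of 5 genes of MCL1 protein turnover, March5 (2.79) and Usp9x (0.87), a ligase and a deubiquitinase, were called higher and none lower. Of 4 tested BCL2-like and BNIP genes, Bnip3 (1.84) was called higher and Bcl2l12 (-1.33) lower. The median log2 changes of these lists were 0.71, 0.84, 0.06, -1.54, 0.79, and -0.34 in the order given, beside -0.06 over all genes. With total counts as the scale the same lists had 3 higher and 4 lower, 4 and 2, 2 and 6, 0 and 4, 1 and 0, and 1 and 3, beside 10.7% of all genes higher and 46.5% lower.

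**Figure D5:**
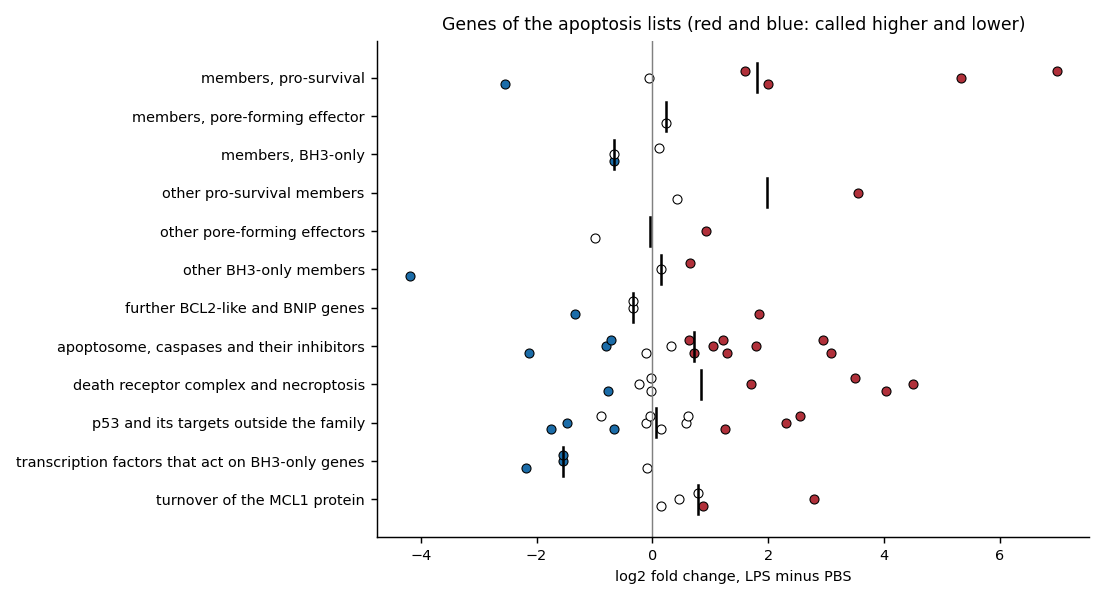
Log2 fold change of LPS minus PBS for each tested gene of the family and of the lists around it, red where called higher, blue where called lower, and white where not called, with a black bar at the median of each list. Called genes lie on both sides of 0 in some lists and on a single side in others, the pro-survival members span -2.55 to 6.99, and all 3 called transcription factors lie below 0. With total counts as the scale more genes are called lower, and the calls of Bak1 and Bid are lost.

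In the comparisons with 3′SL, 0 of the 53 tested genes of the lists around the 10 members were called by edgeR. The block fit called 3 with 3′SL alone, Birc3 (0.69, adjusted p = 0.00459), Fas (0.78, adjusted p = 0.014), and Usp9x (0.69, adjusted p = 0.00392), all higher, beside 2.84% of all genes. With LPS it called Fas (-0.65, adjusted p = 0.0158) and Btg2 (-0.59, adjusted p = 0.0434), both lower, beside 1.45% of all genes. In the interaction it called Birc3, Btg2, Cflar, Fas, Mdm2, and Usp9x, all below 0, beside 1.55% of all genes. These genes are named after their values were seen. Fas was the 1 gene of these lists that DESeq2 called in the interaction (-1.49, adjusted p = 0.0167), beside 0.308% of all genes. It had 3.22, 3.54, and 3.17 CPM with PBS, 4.35, 5.45, and 7.67 with 3′SL, 62.9, 70.7, and 90.2 with LPS, and 37.7, 49.2, and 55.7 with LPS + 3′SL. Fas was higher with 3′SL alone and lower with 3′SL beside LPS in each set. Bcl2a1a had the same signs, but its log2 ratio of 3′SL to PBS in set 2 was only 0.06. That ratio rested on few reads, and the CPM of Bcl2a1a overlapped between 3′SL and PBS.

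The genes outside the family whose level followed summed A1 most closely were found by Pearson correlation of log2 (CPM + 1) over the 12 libraries, which share their conditions and sets. They were Ctsz (r = 0.995), a lysosomal protease, 4930430E12Rik (0.994), Snn (0.993), Slc7a2 (0.991), a transporter of cationic amino acids, and Rars (0.991), a tRNA synthetase. Like summed A1 (66.1 ± 7.96, 41.9 ± 2.24, 438 ± 64.9, and 267 ± 38.8 CPM in the order PBS, 3′SL alone, LPS alone, both), Snn had 11.7 ± 1.12, 8.75 ± 0.805, 79.7 ± 6.00, and 50.4 ± 5.69 CPM, and Ctsz had 676 ± 4.82, 596 ± 14.1, 1314 ± 68.6, and 1106 ± 79.8 CPM.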

How the data were processed

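RNA from 12 BMDM libraries (TruSeq stranded mRNA) was sequenced, and the authors deposited 1 file of whole-number read counts per gene and library, made with Trimmomatic, STAR, and HTSeq per the labels. Tool versions, genome build, annotation, strand setting, and read length are not given in the sources used here. Identifiers were named with GENCODE M21 (GRCm38), which matched 42462 of 43626. Rows that name no gene were left out of library sizes, with 650254 to 869895 ambiguous and 8634639 to 11273250 not uniquely aligned reads per library.

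Groups came from the labels, and replicates were numbered in accession order. All 12 libraries entered 1 edgeR fit (R 4.3.3, edgeR 4.0.16, TMM, filterByExpr, quasi-likelihood test, Benjamini-Hochberg over 14308 genes, called at an adjusted p under 0.05 and 1.5-fold). Precision rests on 3 libraries per condition. Single values were compared with exact permutation tests (Python 3.11.15, scipy 1.17.1). DESeq2 1.42.0, other scalings and filters, fewer libraries, summed A1 copies, and library set as a block were alternatives, and the block with a set left out and levels per countable start were chosen after seeing the data. The library sets were themselves formed from the residuals of these libraries, so p-values of the block fit rest on a factor taken from the data. The fit reported and the exact tests did not use the sets. EdgeR's common coefficient of variation, its measure of the spread between libraries, was 0.310 in the fit reported and 0.133 with the block. EdgeR without the block and DESeq2 were run on simulated data, for LPS + 3′SL against LPS only. The block fit, the fits of summed A1, and the interaction were not tested in this way.

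The members and lists were chosen with earlier results of these data known. By rule, the text names all 10 members, every further pro-survival, effector, and BH3-only gene, genes called with 3′SL, for LPS the 2 largest called changes per direction and list, and the 5 genes most like summed A1. Cflar, Casp8, and Foxo1 were named in addition, after their values were seen. 1 gene that the rule names is not reported here.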

Additional observations from a re-analysis of the deposited data

Results flagged for a closer look

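The change with 3′SL differed between cells with and without LPS for 2 A1 copies when library set was a block. For Bcl2a1a the difference was -1.93 on the log2 scale (SE 0.68, edgeR without the block adjusted p = 0.746, with it -1.87 and adjusted p = 0.0166), and its log2 CPM ratios were 1.37, 0.06, and 1.42 for 3′SL against PBS and -0.85, -0.58, and -0.92 for LPS + 3′SL against LPS. For Bcl2a1d it was -1.18 (SE 0.45, edgeR adjusted p = 0.746, with the block -1.13 and adjusted p = 0.0334), with ratios of -0.29, 0.39, and 0.66 against -0.98, -0.69, and -0.86. Bcl2a1a had 11 to 41 reads per 3′SL library, so its ratios without LPS rest on few reads.

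For Bcl2l1 the difference was 0.49 (SE 0.21, edgeR unadjusted p = 0.0383, adjusted p = 0.808, with the block adjusted p = 0.188), and every set moved one way without LPS and the other way with it. Its log2 CPM ratios were -0.15, -0.13, and -0.78 for 3′SL against PBS and 0.11, 0.11, and 0.12 for LPS + 3′SL against LPS.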

How the results depend on the processing

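With LPS, 5 to 7 members were called when 1 library was left out (31.7% to 39.2% of all genes), 7 with the block (44.6%), and 8 with total counts (57.3%), against 6 and 38.5% in the fit reported. In the comparisons with 3′SL no member was called in any fit with 1 library left out, where at most 0.0546% of all genes were called. For 3′SL against PBS, DESeq2 called 1 member (0.615% of all genes), the block 2 (2.84%), and the block without set 3 called 1 (2.24%). For LPS + 3′SL against LPS these counts were 1 (0.79% of all genes), 3 (1.45%), and 3 (2.58%). For the interaction the block called 2 (1.55%) and the block without set 3 called 1 (3.17%). No replicate numbers are shared in the labels, so the block pairs libraries by set only. The cause of these changes was not tested.

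Signs turned for members near 0, none of them called there. With total counts these were Bax with LPS (-0.42) and with 3′SL (-0.084), Pmaip1 with LPS (-0.52), Bcl2l11 with 3′SL (-0.0090), and the interactions of Mcl1 (0.12) and Bcl2l11 (0.097). Bax with 3′SL was -0.018 over all genes with at least 1 count, -0.0077 in a fit of these conditions alone, and -0.038 with the block and no set 2. With the block and no set 1, Bbc3 with 3′SL was -0.18 and Bcl2l11 with LPS + 3′SL was -0.036. The interaction of Bbc3 was -0.081 without set 2. With the block and no set 3, Bcl2l1 with LPS was 0.095, Bcl2l11 was -0.15 with 3′SL, -0.058 with LPS + 3′SL, and 0.088 in the interaction, Bbc3 was -0.043 with LPS + 3′SL and -0.13 in the interaction, and the interactions of Bax and Pmaip1 were -0.00029 and 0.071. With 1 library left out, the range for 3′SL against PBS was -0.18 to 0.60 for Bcl2a1d, -0.056 to 0.063 for Bax, -0.080 to 0.19 for Bcl2l11, and -0.12 to 0.37 for Bbc3. For LPS it was -0.20 to 0.11 for Bcl2l1 and -0.10 to 0.32 for Pmaip1, and for LPS + 3′SL against LPS -0.017 to 0.064 for Bax and -0.20 to 0.14 for Bcl2l11. For the interaction it was -0.14 to 0.035 for Mcl1, -0.043 to 0.077 for Bax, -0.29 to 0.090 for Bcl2l11, and -0.24 to 0.25 for Bbc3.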
